A study of Mus musculus with 12 samples.

Results

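The nuclear-encoded subunits of the mitochondrial respiratory chain were examined in the main olfactory epithelium (MOE) of H2be-KO and WT mice. Members were the array probe sets whose gene symbols all name a subunit of complexes I to V or, for the Uqcc genes, an assembly factor of complex III (the Nduf, Sdh, Uqc, Cyc1, Cox4 to Cox8 and Atp5 genes), and 113 of the 28944 experimental probe sets on the array qualified. They carry 87 different symbols or symbol groups, with 42 probe sets for complex I, 4 for complex II, 16 for complex III, 21 for complex IV and 30 for complex V. A further 3 probe sets that name Cox7c together with a predicted gene were left out. The rule used names alone, although it was chosen with earlier results of these data known. All 113 members passed the level filter of a mean log2 signal above 5, as did 28151 probe sets in all.

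H2be-KO mice carry an allele in which the protein-coding part of H2be, which makes a variant of histone H2B in odour-sensing neurons outside DNA replication, gave way to a membrane-directed Gap43-mCherry reporter. WT mice have the intact gene, and the line was bred with C57Bl/6. All mice were 6 months old, and whole MOE was taken, so neurons, supporting cells, stem cells and the underlying tissue were measured together. There were 6 arrays of each genotype, each with RNA pooled from 2 animals. The labels do not give their sex, while a figure legend of the study calls the H2be-KO mice of its microarray values male. In such bulk RNA, fewer cells of a type and less RNA per cell cannot be told apart.

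The respiratory chain passes electrons from NADH, at complex I, and from succinate, at complex II, through complex III to oxygen at complex IV. The proton gradient built on the way drives ATP synthesis at complex V. Most subunits are encoded in the nucleus and imported, and the genes for many of them have retained processed copies elsewhere in mammalian genomes. Olfactory neurons are known for a high density of mitochondria in the dendritic knob beneath the odour-sensing cilia.

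The promoters of 3 member genes that had a probe set of low p on these arrays are shown because they carry, between them, both kinds of element for which respiratory chain promoters are known. Of the other genes with such a probe set, Atp5pb had 0 matches in its window, and Ndufs5 had 1 NRF1-type match but its low p belongs to a probe set numbered on another chromosome. The sequences are those of RefSeq on GRCm38.p6, from 250 bases before to 50 bases after the annotated start, written 5′ to 3′ on the strand of the gene. Capitals mark GCGCANGCG, the core bound by NRF1, or CCGGAAG, the core bound by ETS factors such as GABP, on either strand (the reverse complement of the second reads CTTCCGG).
Uqcc2 (chr17:27133842-27134141, minus strand): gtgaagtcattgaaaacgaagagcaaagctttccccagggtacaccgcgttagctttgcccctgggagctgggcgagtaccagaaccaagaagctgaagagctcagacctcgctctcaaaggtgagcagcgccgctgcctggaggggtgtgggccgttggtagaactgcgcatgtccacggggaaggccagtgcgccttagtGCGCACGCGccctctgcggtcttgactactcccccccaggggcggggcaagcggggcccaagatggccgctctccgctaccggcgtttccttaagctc
Atp5l (chr9:44920693-44920992, minus strand): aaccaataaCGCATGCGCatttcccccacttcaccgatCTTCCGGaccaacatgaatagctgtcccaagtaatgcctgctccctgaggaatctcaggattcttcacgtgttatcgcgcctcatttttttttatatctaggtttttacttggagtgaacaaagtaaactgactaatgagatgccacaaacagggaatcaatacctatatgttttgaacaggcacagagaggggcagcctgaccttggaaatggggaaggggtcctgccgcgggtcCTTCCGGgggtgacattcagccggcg
Atp5md (chr19:47090598-47090897, minus strand): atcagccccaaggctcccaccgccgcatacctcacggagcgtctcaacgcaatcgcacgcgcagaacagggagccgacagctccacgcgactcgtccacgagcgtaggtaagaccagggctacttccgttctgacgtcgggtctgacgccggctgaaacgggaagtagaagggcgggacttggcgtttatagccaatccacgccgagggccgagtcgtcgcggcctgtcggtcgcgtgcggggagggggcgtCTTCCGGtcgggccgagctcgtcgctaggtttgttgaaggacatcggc
The Uqcc2 window held 1 NRF1-type match, the Atp5l window held 1 NRF1-type match at its far end and ETS-type matches on both sides of the start, and the Atp5md window held 1 ETS-type match just past the start. Of the 88 member symbols, 71 matched a promoter in the RefSeq table, with 76 windows of 300 bases. The NRF1-type letters stood in 28.9% of these windows and in 6.25% of all 32851 promoters. The ETS-type letters stood in 22.4% of member windows and in 8.86% of all promoters. Another element, AAGATGGCG, the core bound by YY1, stood in 9.21% of member windows and in 1.40% of all promoters, with both strands searched for each core. Matches of different cores overlapped in 0 member windows. These shares describe the windows and do not show that a factor binds. The median H2be-KO minus WT difference was 0.08 over 20 measured genes with an NRF1-type match and 0.06 over 49 without, and it was 0.06 over 17 genes with an ETS-type match and 0.07 over 52 without, with no test between these sets.

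The median signal per array lay between 7.84 and 7.90, and arrays correlated at 0.951 to 0.985 over all tested probe sets. H2bc21, the current symbol of H2be, read 11.51 to 11.84 in H2be-KO (n = 6) and 11.63 to 12.12 in WT (n = 6). It was lower in H2be-KO, with a difference of -0.24 ± 0.09 (SE; limma p of 0.0233, exact permutation p of 0.0195) and overlapping ranges. The position of this probe set relative to the replaced part is not known here. Omp, the defining marker of mature olfactory neurons, averaged 12.90 ± 0.07 in H2be-KO arrays and 12.90 ± 0.07 in WT arrays (SD, n = 6 each). In H2be-KO arrays 1 and 6 the enamel gene Amelx read 11.87 and 11.66, against at most 6.03 in the other arrays, so the counts below are also given without those arrays. A median standard error of 0.112 for a log2 difference sets the precision.

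Respiratory chain signals were close to equal in the genotypes. By gene symbol, the share called higher in H2be-KO was close to that of all symbols. With a limma p under 0.05 before adjustment, 9 of the 113 members (7.96%) were called higher in H2be-KO and 0 were called lower. The same rule called 3.78% of all 28151 tested probe sets higher (1065) and 1.77% lower (498). After quantile normalization, the split of all probe sets was 828 higher and 899 lower. After Benjamini-Hochberg adjustment over all tested probe sets, 0 members and 0 other probe sets passed 0.05, and the smallest adjusted limma p of a member was 0.753. The exact permutation test over arrays, run member by member, put 11 at an unadjusted p under 0.05, all higher in H2be-KO. Over all tested probe sets it put 1121 higher (3.98%) and 572 lower. The 9 probe sets stand for 5 genes, since 4 measure Atp5l and 2 measure Atp5md, and averaging probe sets by symbol left 3 of 87 higher (3.45%), namely Atp5l, Atp5md and the Ndufs5 and Ndufs5-ps pair. Averaged in the same way, 667 of all 20413 symbols were higher (3.27%).

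The count of 9 depended on which arrays were kept. It was 2 without H2be-KO array 3 and 2 without H2be-KO array 5, where 2.09% and 1.82% of all tested probe sets were called higher, and 4 and 3 without WT arrays 2 and 5 (3.25% and 2.54% of all). It was 23 without H2be-KO array 4 and 20 without WT array 6, where 7.94% and 8.05% of all tested probe sets were called higher. Without H2be-KO arrays 1 and 6 it stayed at 9 (2.58% of all), and Ndufa3 was then lower.

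The median H2be-KO minus WT difference over the members was 0.07 on the log2 scale, and 84 of 113 (74.3%) were above 0. Over all tested probe sets the median was 0.02 and 56.2% were above 0. Probe sets of the same level as the members give a closer background. Among the 5341 tested probe sets whose mean level lay between the members' quartiles (9.14 to 10.72), the median difference was 0.05, 65.2% were above 0, 3.13% were called higher and 0.749% lower. The 57 members in that band had a median of 0.08, 46 of them (80.7%) were above 0, and 2 (3.51%) were called. The median of all 113 members was closer to that of the band than to that of all probe sets. Members within the band still had a higher median than the band, with no test between them. Under quantile normalization the members' median was 0.02 and 64 were above 0, against a median of -0.0006 over all tested probe sets.

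**Figure D1:**
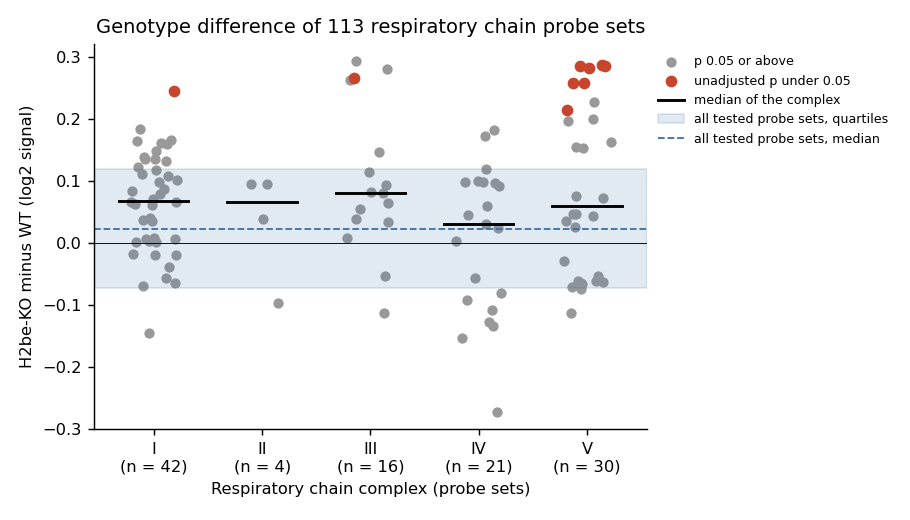
H2be-KO minus WT difference in log2 signal (vertical axis) of the 113 member probe sets by complex (horizontal axis), with the median of each complex as a bar and the quartiles and median of all tested probe sets as a band and a dashed line. The 9 coloured points have an unadjusted limma p under 0.05, 7 of them in complex V, 1 in complex I and 1 in complex III.

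By complex, the median difference was 0.07 for complex I (34 of 42 above 0), 0.07 for complex II (3 of 4), 0.08 for complex III (14 of 16), 0.03 for complex IV (13 of 21) and 0.06 for complex V (20 of 30). Complex IV includes tissue-type forms, listed below, and without them its median was 0.09 (13 of 14 above 0). With them included, quantile normalization turned the complex IV median to -0.03. It brought complex V to 0.01, while the medians of complexes I, II and III were then 0.04, 0.01 and 0.05. The calls were 1 in complex I, 0 in complex II, 1 in complex III, 0 in complex IV and 7 in complex V, with no test between complexes.

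Complex I, the NADH dehydrogenase, held 1 called probe set, which names both Ndufs5, an accessory subunit, and its pseudogene Ndufs5-ps. Its signal was 7.81 to 7.99 in H2be-KO (median 7.89, n = 6) and 7.45 to 7.87 in WT (median 7.64, n = 6). The H2be-KO arrays were tightly grouped and 4 of them exceeded every WT array, while WT arrays 2 and 6 fell within the H2be-KO range. The difference was 0.24 ± 0.09 (SE), with a limma p of 0.0134 and an exact permutation p of 0.0130. It stayed below 0.05 in all 23 other settings tried. In the platform's numbering, in which neighbours along a chromosome mostly have neighbouring numbers, this probe set stands among genes of chromosome 16, where Ndufs5-ps lies, whereas Ndufs5 is on chromosome 4. The probe set of Ndufs5 alone, numbered on chromosome 4, read 8.12 ± 0.28 in H2be-KO against 8.02 ± 0.18 in WT (SD, n = 6 each), differing by 0.10 ± 0.13 (SE). Only the first of the 2 probe sets was called, and which transcript it measures was not tested.

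The catalytic core of complex I showed no called member. Ndufs1, the large iron-sulfur subunit, read 10.98 to 11.14 in H2be-KO (median 11.05) and 10.57 to 11.17 in WT (median 10.95), with a difference of 0.14 ± 0.09 (SE). Ndufv1, which binds NADH, differed by -0.02 ± 0.07. The groups overlapped for both. Ndufs4, an accessory subunit whose loss impairs the complex in mice, read 10.22 to 10.34 in H2be-KO and 9.81 to 10.32 in WT, and Ndufa6 read 9.29 to 9.43 in H2be-KO and 8.99 to 9.39 in WT. Their differences were 0.16 ± 0.09 and 0.15 ± 0.08 (SE), the smallest limma p in complex I after the Ndufs5 pair (0.0941 and 0.0901, with exact permutation p of 0.0303 and 0.0476). For Ndufs4 the low end came from WT array 4. Ndufa9, which sits beside the core, exceeded all WT arrays in 5 of the 6 H2be-KO arrays, at 10.45 to 10.76 in H2be-KO against 10.29 to 10.63 in WT. For Ndufa8, another accessory subunit, the exact permutation p was 0.0195 and the limma p 0.147, with 10.23 to 10.40 in H2be-KO against 10.05 to 10.27 in WT, a difference of 0.11 ± 0.07 (SE) and 4 H2be-KO arrays above all WT arrays. In the other direction, Ndufa3 fell under all WT arrays in 5 of the 6 H2be-KO arrays, at 10.55 to 11.03 in H2be-KO against 10.76 to 11.08 in WT, with a difference of -0.14 ± 0.09 (SE). H2be-KO array 1 was its exception, and without that array Ndufa3 was called lower (-0.20, limma p of 0.0345).

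By name family, in which the Ndufs and Ndufv genes hold core as well as accessory subunits, the 15 Ndufa probe sets had a median difference of 0.04, the 12 Ndufb probe sets 0.07, the 9 Ndufs probe sets 0.08 and the 3 Ndufv probe sets 0.16. Ndufs3, a core subunit, differed by 0.06 ± 0.07 and 0.08 ± 0.08 (SE) at its 2 probe sets, and Ndufb11 by 0.00 ± 0.07 and 0.00 ± 0.08. Ndufb2 gave the largest difference of the Ndufb set at 0.18 ± 0.13 (SE), with signals of 7.35 to 8.11 in H2be-KO and 7.44 to 7.95 in WT. Ndufb4, measured by 2 probe sets that also name Ndufb4b, differed by -0.06 ± 0.08 and -0.07 ± 0.08, and in both WT array 4 lay well above all the others (10.71 and 10.94). Ndufa12 had one of the 3 largest spreads among WT arrays (SD 0.35), because WT array 4 read 8.82 while the next lowest WT array read 9.40.

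Complex II, succinate dehydrogenase, is built of 4 subunits, each with 1 probe set. Sdha, the flavoprotein that oxidises succinate, read 11.43 ± 0.15 in H2be-KO and 11.34 ± 0.24 in WT (SD, n = 6 each). Sdhb, the iron-sulfur subunit, read 10.08 ± 0.09 in H2be-KO and 9.98 ± 0.09 in WT. The membrane anchors went different ways in value, with Sdhc at 10.62 ± 0.10 in H2be-KO and 10.72 ± 0.10 in WT and Sdhd at 10.25 ± 0.12 in H2be-KO and 10.21 ± 0.12 in WT. The differences were 0.10 ± 0.11, 0.09 ± 0.08, -0.10 ± 0.08 and 0.04 ± 0.08 (SE), and the groups overlapped for all 4 genes.

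Complex III, the cytochrome bc1 complex, gave its largest values for Uqcc2, an assembly factor needed to make cytochrome b, and Uqcrb, a small subunit at the ubiquinone site. The Uqcc2 probe set numbered on its own chromosome 17 read 7.11 to 7.49 in H2be-KO (median 7.36, n = 6) and 6.89 to 7.20 in WT (median 7.05, n = 6). In 5 of the 6 H2be-KO arrays the signal exceeded all WT arrays, and only H2be-KO array 5 fell among the WT values. The difference was 0.27 ± 0.09 (SE), a ratio of 1.20, with a limma p of 0.00852 and an exact permutation p of 0.00866, the smallest p of any member. The call was lost without H2be-KO arrays 1 and 6 and on averaging with the second Uqcc2 probe set. That second one, numbered among genes of chromosome 9, read 6.30 to 7.02 in H2be-KO and 5.97 to 6.94 in WT, with a difference of 0.09 ± 0.17 (SE) and one of the 3 largest spreads among WT arrays (SD 0.37). The other assembly factors, Uqcc1 and Uqcc3, differed by 0.08 ± 0.12 and 0.15 ± 0.09 (SE).

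Uqcrb had the largest positive differences among the members that were not called. Its 3 probe sets differed by 0.26 ± 0.14, 0.28 ± 0.17 and 0.29 ± 0.15 (SE), with limma p of 0.0842, 0.111 and 0.0675. The probe set on chromosome 13, the chromosome of the gene, read 10.07 to 10.86 in H2be-KO (median 10.37, n = 6) and 9.90 to 10.44 in WT (median 10.12, n = 6). H2be-KO arrays 3 and 5 were the highest of all 12, while the other 4 H2be-KO arrays lay inside the WT range, so the spread within each genotype was about as large as the difference. Without H2be-KO array 4, all 3 probe sets had a limma p under 0.05. The enzymatic core was flatter. Cyc1, cytochrome c1, read 9.94 ± 0.07 in H2be-KO and 9.86 ± 0.11 in WT, Uqcrfs1, the Rieske iron-sulfur protein, read 9.57 ± 0.09 in H2be-KO and 9.45 ± 0.11 in WT, and Uqcrc1, a core protein, read 10.43 ± 0.06 in H2be-KO and 10.37 ± 0.11 in WT (SD, n = 6 each). Their differences of 0.08, 0.12 and 0.06 each had a standard error of 0.08, and the groups overlapped. Uqcr10 was the lowest member of the complex in H2be-KO relative to WT at -0.11 ± 0.10 (SE), with WT array 4 again apart at 9.85. Uqcr11 differed by -0.05 ± 0.10 at the probe set of its own chromosome and by 0.04 ± 0.07 (SE) at the other.

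**Figure D2:**
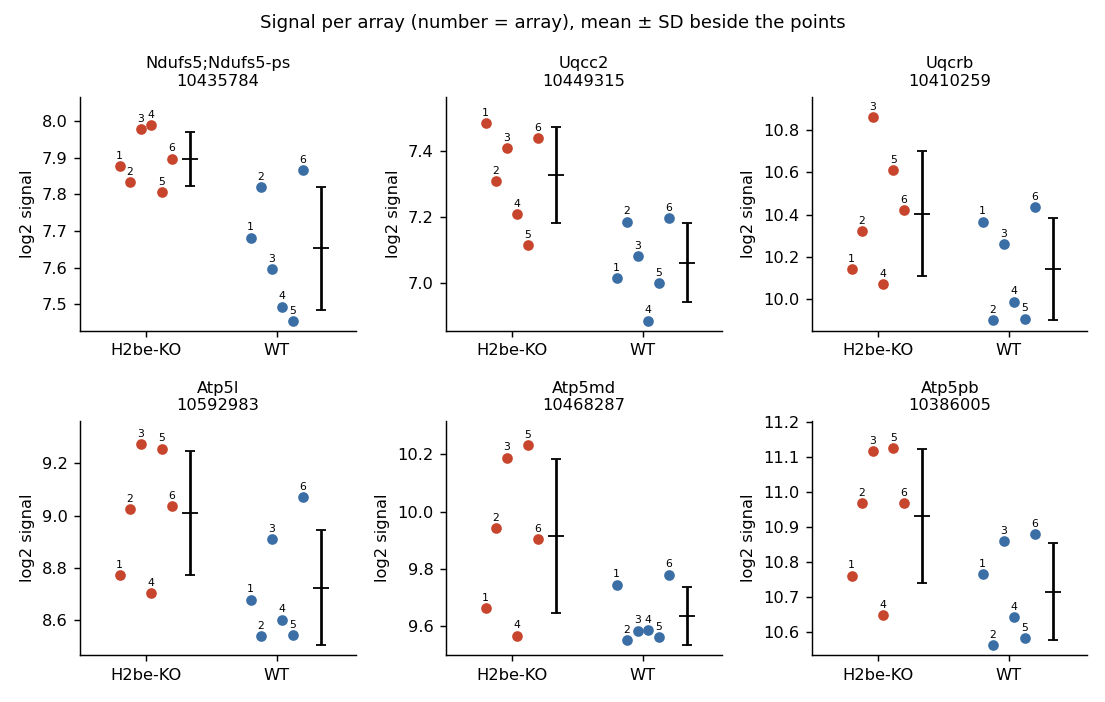
Log2 signal of single arrays (points with the array number) for 1 probe set each of the Ndufs5 and Ndufs5-ps pair, Uqcc2, Uqcrb, Atp5l, Atp5md and Atp5pb, H2be-KO on the left and WT on the right of each panel, with mean ± SD (n = 6 each) and a separate vertical scale per panel. H2be-KO arrays 3 and 5 are highest and arrays 1 and 4 lowest for Uqcrb, Atp5l, Atp5md and Atp5pb, whereas Uqcc2 and the Ndufs5 pair have other orders.

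Complex IV, cytochrome c oxidase, had no called probe set and includes subunits with tissue-specific forms. Of 8 probe sets of the widespread forms, Ndufa4 among them, 7 had a positive difference, against 5 after quantile normalization and 6 after median centring. By their names, Ndufa4 and its relative Ndufa4l2 were placed in complex I for every count and median by complex. Cox4i1, a regulatory subunit, read 9.66 to 10.04 in H2be-KO and 9.63 to 9.92 in WT, with a difference of 0.12 ± 0.09 (SE). Cox5a, a subunit on the matrix side of the complex, read 10.07 to 10.28 in H2be-KO (median 10.25, n = 6) and 10.03 to 10.18 in WT (median 10.13, n = 6). For Cox5a, 5 of the 6 H2be-KO arrays exceeded all WT arrays, the difference was 0.10 ± 0.07 (SE), the limma p was 0.186 and the exact permutation p 0.0368. Cox6a1 and Cox7b had the smallest limma p of the complex (0.114 and 0.116), with differences of 0.17 ± 0.10 and 0.18 ± 0.11 (SE).

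The tissue-type forms had mostly negative differences. These are Cox6a2, Cox7a1 and Cox8b, the heart and skeletal muscle forms, Cox4i2, a lung form, Cox6b2, Cox7b2 and Cox8c, testis forms, and Ndufa4l2, a hypoxia-inducible relative of Ndufa4. Of these 8 probe sets, 7 had a negative difference, also after quantile normalization and after median centring, and the median was -0.12, against 0.09 for the widespread forms. Their median level was 7.35, against 10.47 for the widespread forms. Among the 11698 tested probe sets between the quartiles of the tissue-type levels (6.99 to 8.81), the median difference was 0.01 and 48.0% were negative. Of the 8 tissue-type probe sets 0 were called, and the sets were not tested against each other. Cox6a2 read 7.35 ± 0.12 in H2be-KO and 7.48 ± 0.18 in WT, Cox4i2 8.65 ± 0.17 in H2be-KO and 8.78 ± 0.20 in WT, Cox6b2 7.21 ± 0.27 in H2be-KO and 7.36 ± 0.25 in WT, and Cox8b 9.49 ± 0.25 in H2be-KO and 9.58 ± 0.34 in WT (SD, n = 6 each). Each of these differences was smaller than the SD among the WT arrays. Cox7b2 gave the most negative difference of all members (-0.27 ± 0.19, SE), but its signal of 4.59 to 5.55 in H2be-KO and 5.01 to 5.73 in WT lies near background, where log2 differences carry little weight. Cox7a1 and Cox8c differed by -0.06 ± 0.09 and -0.11 ± 0.15, and Ndufa4l2 by 0.07 ± 0.14. Of the skeletal muscle markers, 1 of 10 was called higher (Acta1) and 0 lower, and their mean level was 7.19 to 7.41 in H2be-KO and 7.06 to 7.45 in WT; their part in the muscle-type subunits was not tested.

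**Figure D3:**
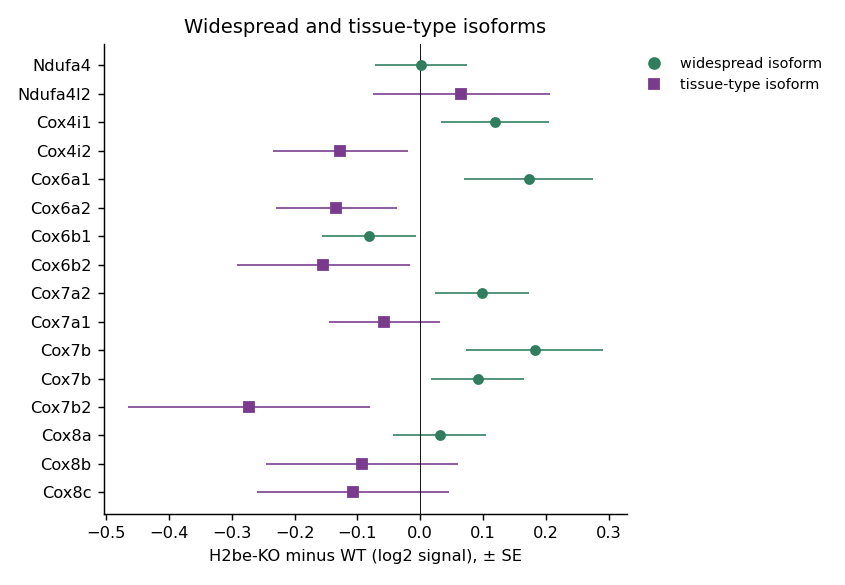
H2be-KO minus WT difference in log2 signal ± SE (horizontal axis) of Ndufa4, Cox4, Cox6a, Cox6b, Cox7a, Cox7b and Cox8 isoforms, with widespread forms as circles and tissue-type forms as squares. Of the 8 tissue-type probe sets 7 lie below 0 and of the 8 widespread ones 7 lie above 0 (5 after quantile normalization), with 0 called.

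Complex V, the ATP synthase, held 7 of the 9 called probe sets, and its parts were not tested against one another. Atp5l, subunit g of the membrane part, was measured by 6 probe sets with differences of 0.20 to 0.29. The one numbered on chromosome 9, the chromosome of the gene, read 8.70 to 9.27 in H2be-KO (median 9.03, n = 6) and 8.54 to 9.07 in WT (median 8.64, n = 6). H2be-KO arrays 3 and 5 exceeded every WT array, the other 4 fell inside the WT range, and WT array 6 was the highest of its genotype. The difference was 0.29 ± 0.12 (SE), a ratio of 1.22, with a limma p of 0.0361 and an exact permutation p of 0.0649. The other 5 stand among genes of chromosomes 1, 5, 7, 11 and X, and 3 of these were called, with the smallest limma p for the one numbered on X (0.0240). All 6 carry the same accessions in the platform annotation, so they are not 6 independent measurements. The call at chromosome 9 was lost in 9 of 24 settings, among them the exact permutation test and the removal of H2be-KO array 3 or 5.

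Atp5md, a small subunit that holds ATP synthase dimers in the membrane, gave similar values. Its probe set on chromosome 19, the chromosome of the gene, read 9.57 to 10.23 in H2be-KO (median 9.92, n = 6) and 9.55 to 9.78 in WT (median 9.59, n = 6). For this gene 4 H2be-KO arrays exceeded every WT array and H2be-KO arrays 1 and 4 did not. The difference was 0.28 ± 0.11 (SE), with a limma p of 0.0265 and an exact permutation p of 0.0390, and it was lost only without H2be-KO array 3 or 5 among 24 settings. The Atp5md probe set among genes of chromosome 8 differed by 0.26 ± 0.11 (limma p of 0.0266), and the one among genes of X by 0.16 ± 0.10 (limma p of 0.128).

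Atp5pb, subunit b of the stalk that holds the catalytic head in place, was called at 1 of its 2 probe sets. The called one, which stands among genes of chromosome 11, read 10.65 to 11.12 in H2be-KO (median 10.97, n = 6) and 10.56 to 10.88 in WT (median 10.70, n = 6), a difference of 0.22 ± 0.10 (SE; limma p of 0.0488, exact permutation p of 0.0606). The one on chromosome 3, the chromosome of the gene, read 10.97 to 11.17 in H2be-KO against 10.99 to 11.07 in WT, and the difference was 0.05 ± 0.07 (SE). The first call was lost in 13 of 23 other settings, including quantile normalization and median centring. Atp5h, subunit d of the same stalk, differed by 0.15 ± 0.10, 0.16 ± 0.09 and 0.20 ± 0.09 (SE) at its 3 probe sets, the last with a limma p of 0.0514. The rest of the stalk and of the membrane part gave values nearer 0, at 0.08 for Atp5o, 0.04 for Atp5j, -0.07 for Atp5j2, -0.05 for Atp5k and 0.03 for Atp5mpl, with 0 called.

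For the catalytic head and the c ring of the rotor the differences were at most 0.07 in size. Atp5a1 and Atp5b, the alpha and beta subunits of the head, read 12.22 ± 0.07 and 12.29 ± 0.06 in H2be-KO and 12.17 ± 0.12 and 12.22 ± 0.09 in WT (SD, n = 6 each), with differences of 0.05 ± 0.08 and 0.07 ± 0.07 (SE). Atp5g1, Atp5g2 and Atp5g3 encode the same c subunit of the rotor ring with different import sequences. All 6 of their probe sets had negative differences, of -0.07 to -0.03, also after quantile normalization and after median centring, and 0 were called. Atp5g2, for example, read 10.63 to 10.90 in H2be-KO and 10.63 to 11.00 in WT at the probe set of its own chromosome, and the groups overlapped. Of the central stalk, Atp5c1 differed by 0.04 ± 0.07, Atp5e by -0.11 ± 0.11 and Atp5d by -0.06 ± 0.07 (SE).

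Of the 87 symbols, 18 had several probe sets (44 in all). For 8 of the 18, every pair of probe sets had residuals from the genotype means that correlated above 0.9 over the 12 arrays, and for 6 at least 1 pair was below 0.5. The lowest r were -0.62 for Atp5pb, -0.45 for Uqcr11 and -0.35 for Ndufc1, followed by 0.28 for Cox7b, 0.34 for Uqcc2 and 0.35 for Cox5b. Over the 40 same-symbol pairs, 15 of them of Atp5l, the median r was 0.97, against 0.06 over 6288 pairs of different symbols. This describes probe sets that share arrays and in part sequence. Of the 6288 pairs, 66 were above 0.9. Among these were Atp5h with Atp5md (0.98) and the called Atp5pb probe set with a called Atp5l probe set (0.97), so calls of different genes were not independent. The position of a probe set in the platform's numbering was set beside its difference. Where at least 0.8 of the 10 neighbours on each side shared a chromosome, it was that of the gene for 99.9% of 18574 genes with 1 probe set on the array. Among the members, 88 stood on a chromosome of a gene they name, with a median difference of 0.05 and 4 called (4.55%), and 24 stood among genes of another chromosome, with a median of 0.16 and 5 called (20.8%). Of these 24, 5 measure Atp5l, and the 5 calls stand for 3 of the 16 genes. Without Atp5l the remaining 19 had a median of 0.10 and 2 called, and the sets were not tested against each other. For 1 member, Ndufa3, the neighbours did not settle a chromosome. Counting only the 88, the share called higher was near the 3.78% of all tested probe sets. The called Ndufs5 pair is among the 88 through the chromosome of its pseudogene. Within genes the order varied. In Atp5l (0.287 against 0.286 for the next) and Atp5md the probe set at the gene's own chromosome had the highest difference. Probe sets on another chromosome had the higher difference for Atp5pb, Ndufa11 (0.16 against 0.01), Cox5b, Cox6c, Uqcrb, Atp5h and Uqcr11. They had the lower one for Uqcc2, Cox7b, Ndufc1 (0.04 against 0.12), Ndufs3, Ndufb11 and Atp5g2, as well as Cox7a2l. Whether these probe sets measure other copies of the genes was not tested.

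**Figure D4:**
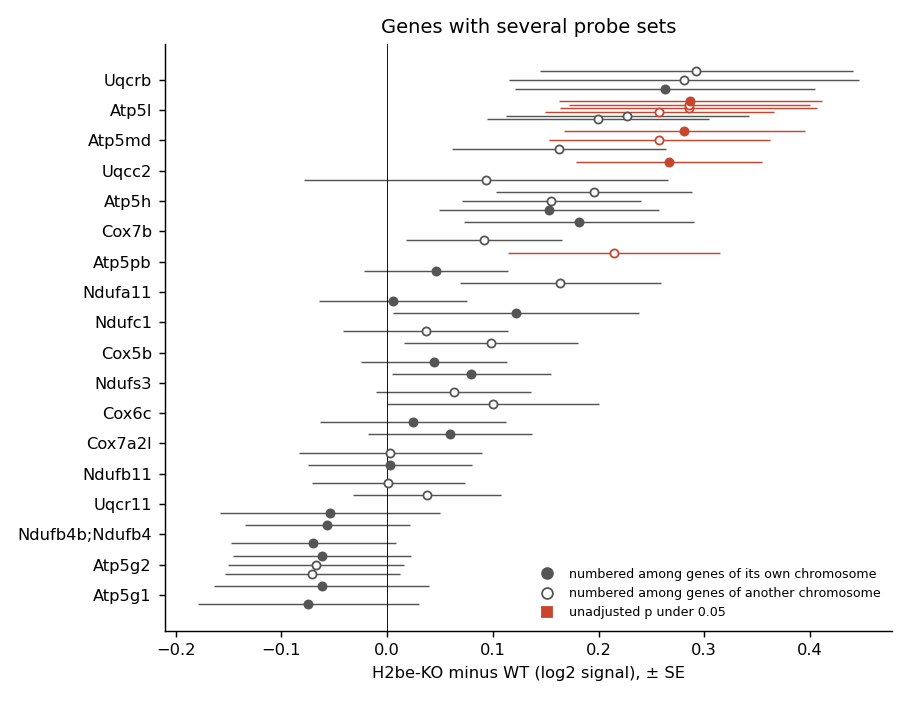
H2be-KO minus WT difference in log2 signal ± SE (horizontal axis) of the 44 probe sets of 18 genes with several, filled where the probe set is numbered among genes of a chromosome of its gene and open where it is numbered among genes of another. The 3 Uqcrb, 6 Atp5l, 3 Atp5md and 3 Atp5h probe sets all lie above 0 and the 2 Atp5g1 and 3 Atp5g2 probe sets below 0, while the pairs of Atp5pb and Uqcc2 lie apart.

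Arrays of the same genotype differed from one another along a common line. A single component held 49.4% of the within-genotype variance of the 113 members. It was high in H2be-KO arrays 3 and 5 and in WT array 6, and low in H2be-KO arrays 1 and 4 and in WT array 4. Uqcrb, Ndufa12, Atp5l, Ndufb2 and Ndufc1 were high where it was high, and Cox7b2, Cox8c, Cox6b2 and Atp5g1 were low there. Uqcrb and Atp5l, above WT in H2be-KO, and Cox7b2 and Atp5g1, below it, stood towards opposite ends of a line along which arrays of 1 genotype also varied. Weights on the component ran from 0.26 (Uqcrb) to -0.30 (Cox7b2, near background). They were near 0 for the called probe sets of Uqcc2 (0.02) and the Ndufs5 pair (0.03). Probe sets were not scaled, and each probe set of a gene counted, such as the 6 of Atp5l. The part of this line in the genotype differences was not tested, and no batch was given in the sources used here.

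As a level, the mean of the 113 members less the array's mean over all tested probe sets was 1.80 ± 0.02 in H2be-KO (1.78 to 1.84) and 1.76 ± 0.06 in WT (1.68 to 1.84; SD, n = 6 each). The H2be-KO arrays were closer together, WT array 5 was the lowest and WT array 6 the highest, so the H2be-KO range fell inside the WT range. For complex V the same score was 2.36 ± 0.03 in H2be-KO and 2.30 ± 0.06 in WT. For complex III it was 1.24 ± 0.04 in H2be-KO and 1.16 ± 0.09 in WT. For complex IV, with its tissue-type forms included, it was 1.54 ± 0.06 in H2be-KO and 1.56 ± 0.04 in WT.

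**Figure D5:**
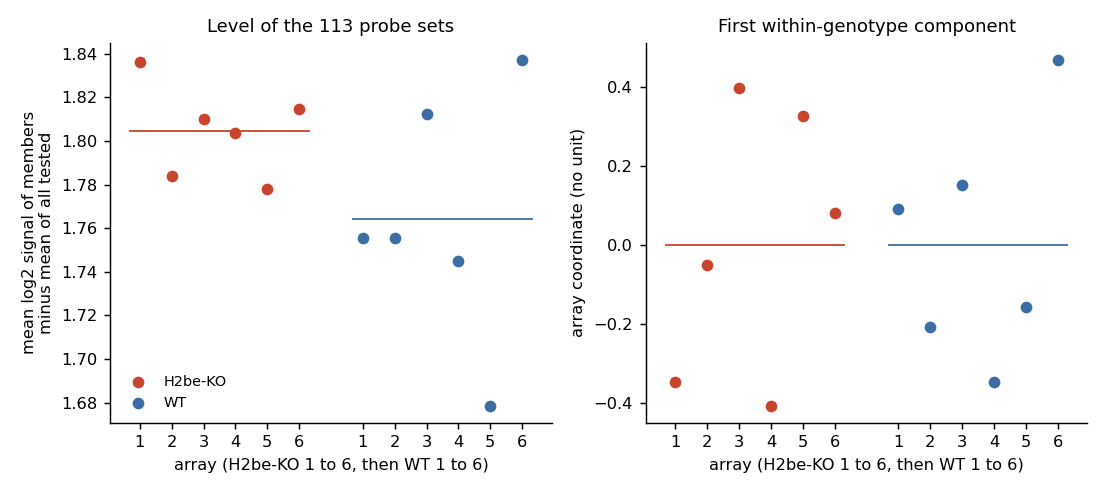
Left, mean log2 signal of the 113 members less the mean of all tested probe sets for each array, and right, the array's coordinate on the first within-genotype component, with H2be-KO arrays 1 to 6 before WT arrays 1 to 6 and lines at the genotype means. The H2be-KO scores (1.78 to 1.84) lie within the WT range (1.68 to 1.84), and H2be-KO arrays 3 and 5 and WT array 6 stand high on the component.

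Other genes of mitochondrial function were compared as lists. The mitochondrially encoded subunits were represented by COX2, a catalytic subunit of complex IV, and ND3, a subunit of complex I. COX2 differed by 0.14 (limma p of 0.141) with identical values at its 2 probe sets, and ND3 by 0.28 and 0.10 (limma p of 0.0590 and 0.273). Assembly factors of complexes I, II, IV and V had medians of 0.12, 0.13, 0.06 and 0.10, with 0 of their probe sets called. The mitochondrial ribosome, which translates the mitochondrially encoded subunits, had a median of 0.08 over 85 probe sets, with 8 higher and 1 lower in H2be-KO. Of these, Mrpl3 read 8.61 ± 0.15 in H2be-KO against 8.35 ± 0.15 in WT, differing by 0.26 ± 0.09 (SE, limma p of 0.0146). For import into the organelle, 2 of 31 probe sets were higher (Timm13 and Timm44) and 1 lower (Timm8a2), with a median of 0.12. The tricarboxylic acid cycle, which supplies NADH and succinate, had a median of 0.07 with 0 of 16 called, and glycolysis a median of -0.03 with 0 of 20 called. As background, 3.78% of all tested probe sets were higher and 1.77% lower, with a median of 0.02.

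Among known regulators of these genes, 9 of 14 probe sets had a positive difference, also after quantile normalization and after median centring, with a median of 0.16 and 0 called higher. The 2 called lower in H2be-KO were Ppargc1b, a coactivator, and Esrra, a nuclear receptor that works with it. Ppargc1b read 8.06 ± 0.03 in H2be-KO against 8.27 ± 0.15 in WT (SD, n = 6 each), differing by -0.21 ± 0.08 (SE, limma p of 0.0178). Esrra read 7.95 ± 0.10 in H2be-KO against 8.15 ± 0.11 in WT, differing by -0.19 ± 0.08 (limma p of 0.0281). Of the 12 not called, Tfb2m, a mitochondrial transcription factor, had the smallest p, with differences of 0.32 and 0.30 (limma p of 0.0535 and 0.0555) at its 2 probe sets. Nrf1, Gabpa and Yy1, whose cores were searched for in the promoters, differed by 0.16, 0.21 and 0.19 (limma p of 0.142, 0.0780 and 0.114), and Tfam, which maintains mitochondrial DNA, by 0.26 (limma p of 0.0701).

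Levels of cell type markers stand beside these results. Mature olfactory neuron markers had 0 of 15 probe sets called and a mean level of 10.83 to 11.05 in H2be-KO and 10.89 to 11.00 in WT. Of immature neuron markers, 1 of 9 was higher (Gap43, by 0.25, part of whose coding sequence is in the reporter), with a mean level of 9.77 to 10.17 in H2be-KO and 9.79 to 10.06 in WT. Of 6 progenitor probe sets, Top2a was higher by 0.32, with a mean level of 7.63 to 8.03 in H2be-KO and 7.51 to 7.85 in WT, and horizontal basal cell markers had negative differences at 5 of 5 probe sets, also after quantile normalization and after median centring, with a median of -0.13 and a mean level of 8.41 to 8.63 in H2be-KO and 8.39 to 9.01 in WT. Of these, Itgb4 was called lower (-0.26) and Krt14, at -0.25, did not pass the test. Sustentacular cell markers had 0 of 8 called, at 11.37 to 11.52 in H2be-KO and 11.33 to 11.50 in WT. Of 5 ensheathing glia probe sets, Fabp7 was higher by 0.22, with a mean level of 8.20 to 8.68 in H2be-KO and 8.26 to 8.65 in WT, and macrophage, bone and cartilage, ciliated cell, brown fat and gland markers had 0 called, the bone marker Dmp1 differing by 0.40 (limma p of 0.0787). The genotype ranges overlapped for every list, and the part of cell composition in the respiratory chain values was not tested.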

How the data were processed

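RNA from whole MOE was measured on Affymetrix Mouse Gene 1.0 ST arrays. The authors screened arrays for outliers, summarised probes with IterPLIER, normalised by sketch-quantile in Affymetrix Expression Console (versions not given in the sources used here) and deposited log2 signals for 35556 probe sets, so a change common to most transcripts would have been removed. The 6612 control probe sets were left out. Groups came from sample titles, 6 arrays each. Symbols came from the platform annotation. The model, fitted with limma 3.58.1 in R 4.3.3 on the 28151 probe sets whose log2 signal averaged above 5, had genotype as its only term, and p-values are two-sided. A call means an unadjusted p under 0.05, the threshold of the study's methods. Exact permutation p-values ran over all 924 choices of 6 of 12 arrays and cannot go below 0.00216. The labels do not say whether arrays hold separate litters, so p-values measure the spread between these pools. The fit was tested on simulated data with known shifts.

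Named genes were every called member, the 3 of smallest p per complex, core subunits, tissue-type isoforms, every gene with several probe sets and the 3 with the largest spread among WT arrays, beside members singled out after their values were seen (Ndufa3, Ndufa8, Ndufa9, Ndufb2, Ndufs5, Uqcc1, Uqcc3, Uqcr10, Atp5c1, Atp5d, Atp5e, Atp5j, Atp5j2, Atp5k, Atp5mpl and Atp5o). The members and lists were chosen with earlier results of these data known. Promoters were matched by symbol.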

Additional observations from a re-analysis of the deposited data

Results flagged for a closer look

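Among the named members, 5 of 150 genotype groups of 6 arrays had a single array further from its neighbour than Dixon's critical value of 0.625 of the group's range, where chance alone gives about 1 in 20 groups. Ndufb4 (with Ndufb4b) did so at both probe sets, because WT array 4 read 10.71 and 10.94, with a gap of 0.686 and 0.832 of the range. Sdhc read 10.43 in H2be-KO array 3, below the next lowest at 10.61 (0.679 of the range). Cox4i2 read 8.39 in WT array 6, below the next lowest at 8.78 (0.689), and Cox6a1 read 10.52 in WT array 2, above the next highest at 10.31 (0.632).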

How the results depend on the processing

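No result among the counts, the median and the named probe sets was both called and reversed in sign under any setting tried. The 9 members called higher were 8 to 13 under the level filters, quantile normalization, median centring, the replicate block (10), trend and robust moderation, exact permutation tests and members with 1 symbol. They were 21 higher and 1 lower (Cox6a2) with array weights, and 3 of 87 averaged by gene symbol. Among probe sets at a chromosome of a gene they name, a setting chosen after seeing the data, they were 4. These 4 include the Ndufs5 pair, placed by its pseudogene. Leaving out 1 array gave 2 to 23 higher and 0 to 1 lower (Ndufa3 without H2be-KO array 1, Cox4i2 without WT array 6), and the removal of H2be-KO arrays 1 and 6, also chosen after seeing the data, gave 9 higher and 1 lower (Ndufa3). The members' median difference was 0.024 after quantile normalization (-0.0006 over all tested probe sets), and 0.05 to 0.07 with single arrays left out. Over all tested probe sets, calls were 2694 higher and 1405 lower with array weights, 667 higher averaged by gene symbol, 899 lower after quantile normalization, and 513 to 2265 higher and 313 to 1552 lower with single arrays left out. The share of all tested probe sets called higher was 2.94% after quantile normalization, 3.18% after median centring and 4.45% with the level filter at 7. It was 3.98% by exact permutation, 4.28% with trend and robust moderation and 9.57% with array weights. The cause of these changes was not tested.

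The labels number arrays 1 to 6 in both genotypes. Same-numbered arrays all had positive residual correlations, of 0.03 to 0.59, 2 of them under 0.1. Of 6 H2be-KO arrays, 4 correlated best with the WT array of their own number. The labels do not explain the numbers, and the main fit did not use them. Whether equal numbers mark pairs was not tested, so p-values and counts without the block hold only for unpaired arrays. With the number as a replicate block, calls over all probe sets were 2039 higher (7.24%) and 951 lower, against 1065 and 498 without it. The 10 members called higher with the block (8.85%) were the 9 and an Atp5h probe set. With 6 arrays per genotype, log2 differences had a median standard error of 0.112 over all tested probe sets.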
